A study of Mus musculus with 32 samples.

Results

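The Trim5 and Trim30 group is a set of 9 tripartite motif genes that lie side by side on mouse chromosome 7. The members were taken by symbol: Trim5, Trim6, Trim12a, Trim12c, Trim30a, Trim30b, Trim30c, Trim30d and Trim34a. All 9 were found among the 49671 genes listed for the series, and on GRCm38 they span 289.1 kb at chr7:104218793-104507849. RNA was read from the vomeronasal neuroepithelium of 32 mice, 1 mouse per library, with 4 inbred strains represented by 4 females and 4 males apiece, all labelled as 42 days old and with no treatment named. The strains are labelled C57/BL6 (B6), 129S6/SVEV (129), SJL/J (SJL) and SWR/J (SWR), while the paper names the 129 substrain differently.

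Tripartite motif proteins carry a RING domain with ubiquitin ligase activity, a B-box and a coiled coil, and in this group most end in a PRY-SPRY domain that recognizes a target. Primates have a single TRIM5 gene, whose product binds the capsid of incoming retroviruses and blocks infection, whereas the mouse carries several copies related to it, among them Trim5, Trim12a, Trim12c and the Trim30 genes. Many genes of the family are switched on by interferon, through transcription factors that bind the interferon-stimulated response element (ISRE). The vomeronasal organ detects pheromones, and its epithelium holds sensory neurons together with supporting cells, blood vessels and resident immune cells.

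Each mouse gave 5106398 to 18640871 reads placed on genes, and the 9 members together took 30.1 to 120 RPM (reads per 1000000 reads on genes). Levels are given as the deposited normalized counts, in which each library is scaled by a size factor. Levels of different genes are compared as RPKM, the RPM divided by the exon length in kilobases, with every base of any annotated exon counted. Sums and shares of counts over close copies are not scaled by length, and so do not give relative RNA levels of the copies. Markers of mature vomeronasal sensory neurons (6 of 6 with reads) summed to between 2604 and 3870 RPM in every library. Of these 6, edgeR and DESeq2 called 0 between strains, with all 6 at an unadjusted p under 0.05 in some pair. All 6 also had a false discovery rate (FDR) under 0.05 in some pair, at changes under the limit for a call. The median of their sum was 2868 RPM in B6, 3214 in SJL, 3305 in 129 and 3373 in SWR. Earlier results of these data set apart the libraries of B6 female replicate 1 and 129 male replicate 1, so counts of calls are also given without both. All reads were placed on the B6 genome, so differences of the other strains in sequence or gene copies cannot be told apart from differences in RNA level, and neither can fewer cells of a type and less RNA per cell.

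The promoters of the members are shown first, since 6 of the 9 hold the letters of an ISRE. The RefSeq promoter table on GRCm38.p6 covers 250 bases before to 50 after each start and lists all 9 members, Trim30a with a pair of starts. The ISRE was searched as GAAANNGAAA on both strands and was present in 3.44% of the 32851 promoters of the table. The following 60-base stretches around it are in the direction of transcription, and capitals mark the motif, which reads on the opposite strand in each.
Trim34a (chr7:104244427-104244486, plus strand): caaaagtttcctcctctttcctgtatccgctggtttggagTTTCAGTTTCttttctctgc
Trim5 (chr7:104288136-104288195, minus strand): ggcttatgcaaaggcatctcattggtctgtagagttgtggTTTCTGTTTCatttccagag
Trim12a (chr7:104315466-104315525, minus strand): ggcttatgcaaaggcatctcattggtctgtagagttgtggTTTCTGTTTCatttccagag
Trim12c (chr7:104353359-104353418, minus strand): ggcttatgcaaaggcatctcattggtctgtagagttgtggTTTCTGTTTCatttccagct
Trim30a, start 1 (chr7:104465210-104465269, minus strand): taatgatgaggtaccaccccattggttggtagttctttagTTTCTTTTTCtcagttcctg
Trim30a, start 2 (chr7:104446104-104446163, minus strand): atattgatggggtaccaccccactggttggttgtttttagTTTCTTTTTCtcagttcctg
Trim30d (chr7:104507871-104507930, minus strand): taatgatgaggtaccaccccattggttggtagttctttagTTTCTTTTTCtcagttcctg
The stretches of Trim5 and Trim12a were identical over all 60 bases, and that of Trim12c shared 58 of 60 with them. Trim30d matched the first Trim30a start at 60 of 60 bases, while the second Trim30a start shared 37 of 60 with it. The motif letters were not in the windows of Trim6, Trim30b and Trim30c. The Trim30b window, chr7:104358597-104358896, lay inside the gene as placed by GENCODE (chr7:104355382-104369884, minus strand). The outermost start of Trim30b in that annotation was thus not searched. The gamma-activated site, searched as TTCNNNGAA on both strands, was found in 1 member, Trim30c, and in 8.30% of all promoters, and no member held both motifs. These are matches of letters in the B6 reference, read in none of the other strains.

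The copies are close enough in sequence to limit what short reads can separate. The longest coding sequences of Trim34a and its near copy Trim34b, which is no member, were 98.8% identical over 1455 bases. Trim5 and Trim12c were 96.6% identical over 1491 bases, and the coding sequence of Trim12a ended at 891 bases, 97.1% identical to Trim5. Trim30a and Trim30d were 90.2% identical over the 1488 bases aligned, and that of Trim30b ended at 609 bases. Of all windows of a transcript with the length of a read, the share found whole in another gene was 14.7% for Trim34a and 21.3% for Trim34b, 8.48% for Trim30d, 7.19% for Trim5, 5.14% for Trim12a, 4.14% for Trim30a and 3.95% for Trim12c. It was 0% for Trim6, Trim30b and Trim30c. Since reads matching more than 1 place were not counted, the levels of these copies rest on the windows that differ.

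B6 had the highest mean of 7 of the 9 members, and Trim5, Trim6, Trim30a and Trim30d were called higher in B6, SJL and SWR than in 129. A difference was called at an absolute log2 fold change above 1 and an FDR under 0.05 in edgeR's quasi-likelihood test. Of the members, 8 passed the filter on low counts and Trim30c did not. In B6 against 129, 7 of these 8 were called higher in B6 and 0 lower, where 8.72% of all 18382 genes tested were called higher and 2.40% lower (11.1% in either direction). The median log2 fold change over the 8 members was 2.14, beside 0.02 over all genes.

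In SJL against 129, 5 members were called higher in SJL and Trim12c lower (all genes: 5.61% and 2.76%, together 8.38%), with a median log2 fold change of 1.5. In SWR against 129, 4 were called higher and Trim12c lower (4.62% and 3.11%, together 7.73%), with a median of 1.57. In SJL against B6, 0 were called higher and 4 lower (2.67% and 5.33%, together 7.99%), with a median of -0.86. In SWR against B6, 1 was called higher and 4 lower (2.52% and 5.53%, together 8.05%), with a median of -1.01. In SWR against SJL, edgeR and DESeq2 each called 0 members (all genes: 2.19% higher and 2.31% lower, together 4.50%), and 2 members, Trim5 and Trim12c, had an unadjusted p under 0.05 in both tools. Each of the 8 members was called in at least 1 pair, as were 19.8% of all genes. These comparisons share strains, so their counts are not independent. Without the libraries of B6 female replicate 1 and 129 male replicate 1, the counts stayed at 7, 6, 5, 4 and 0, and the count for SWR against B6 went from 5 to 4.

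**Figure D1:**
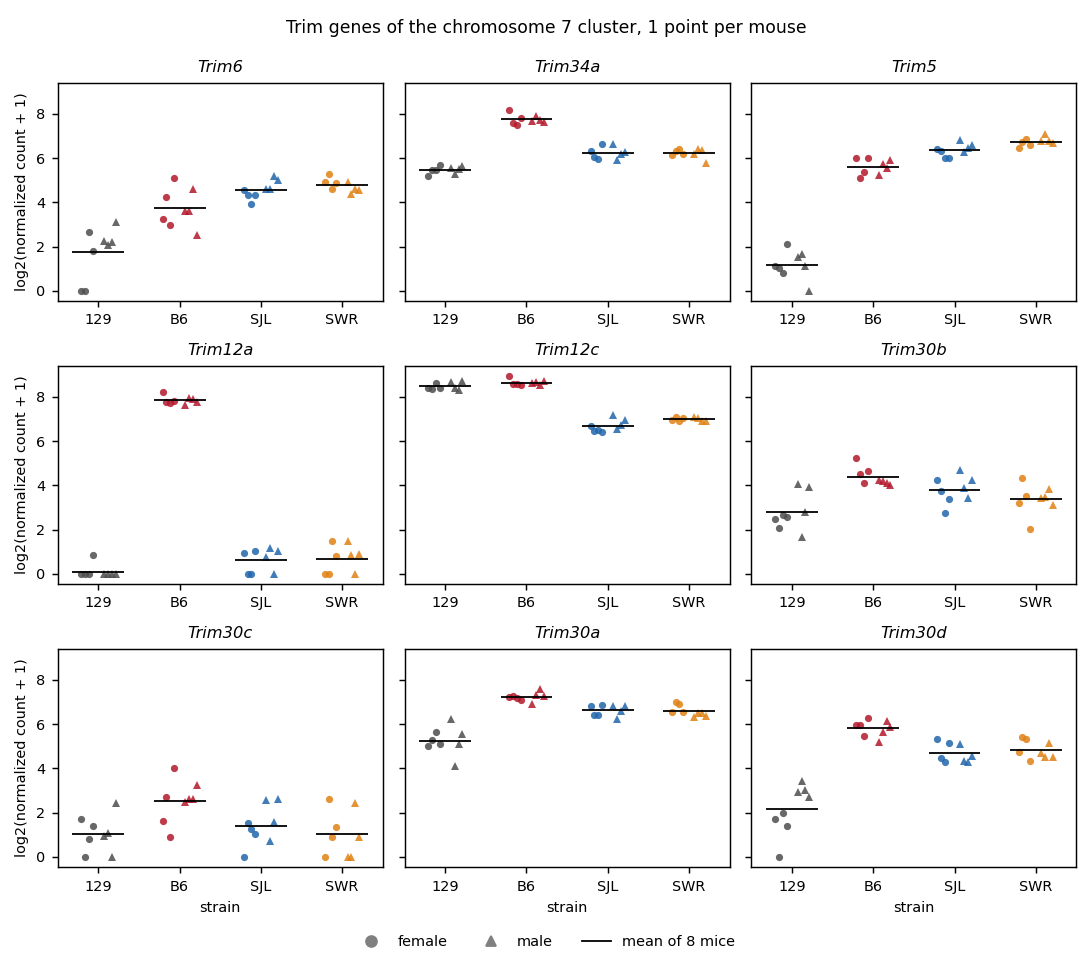
Normalized counts of the 9 Trim genes on a log2 scale after adding 1 (vertical axis) in the 4 strains (horizontal axis). Each point is 1 mouse (circles: females, triangles: males) and each black line is the mean of the 8 log2 values of a strain. Trim12a stood at 199 to 294 normalized counts in B6 and at most 1.77 in each other mouse, and Trim5 at most 3.29 in 129.

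**Figure D2:**
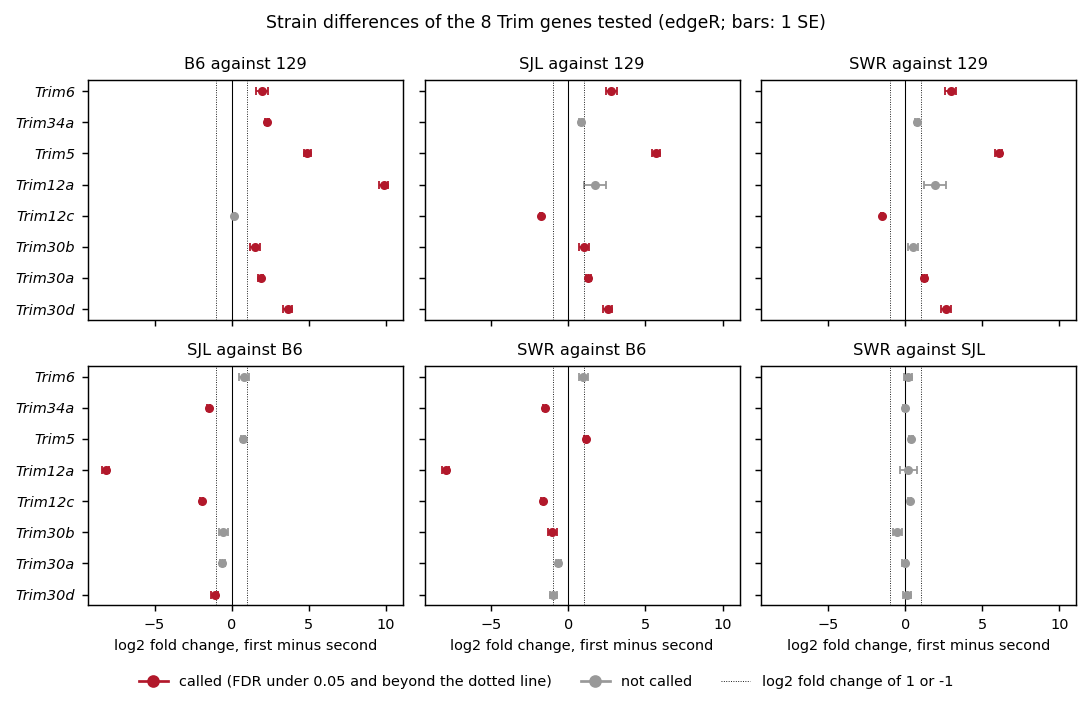
Log2 fold change (first strain minus second, horizontal axis) of the 8 genes tested (vertical axis) in the 6 pairs of strains. Points are edgeR estimates, bars are 1 approximate SE, red marks a call and dotted lines mark a log2 fold change of 1 and -1. The change of Trim12a in B6 against 129 reached 9.89, and no gene was called in SWR against SJL.

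Among the copies nearest to primate TRIM5, the strains differed in which genes had reads. Trim5 (ENSMUSG00000060441, chr7:104263386-104288094, minus strand) is named after the capsid-binding factor. In 129 its 8 mice had 0 to 3.29 normalized counts (median 1.18), from 12 reads in all and at most 4 in a library. B6 had 33.3 to 63.6 (median 49.3), SJL 62.5 to 113 (median 80.9) and SWR 87.7 to 133 (median 108). All 129 mice lay below all other mice, and all SWR mice lay above all B6 mice, while SJL overlapped both of its neighbours in the order. The log2 fold change against 129 was 4.93 ± 0.25 in B6 (SE; edgeR FDR 7.05e-18), 5.68 ± 0.23 in SJL (FDR 2.57e-20) and 6.05 ± 0.23 in SWR (FDR 1.84e-21). The ratio of SWR to 129, taken from summed reads, was 72.7 with a 95% interval of 41.4 to 141 (exact binomial, counting error only). SWR exceeded B6 by 1.12 ± 0.14 (FDR 5.41e-08), a call that was lost when the fold change was tested against the limit itself with glmTreat.

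Trim12a (ENSMUSG00000066258, chr7:104299894-104315466, minus strand) was read almost only in B6. The 8 B6 mice had 199 to 294 normalized counts (median 221) from 1700 reads. In 129, 1 read was found in 1 of 8 mice, the highest value being 0.824. SJL had 6 reads, with 0 to 1.25 normalized counts (median 0.807), and SWR 7 reads, with 0 to 1.77 (median 0.778). B6 did not overlap the other strains, which overlapped one another, with at most 2 reads in a mouse. The ratio of B6 to the other strain was 337 (155 to 920) for SJL and 288 (140 to 718) for SWR, with 95% exact binomial intervals. For 129, with its single read, it was 1860.0 (333 to 73509.5). The edgeR log2 fold change of B6 against 129 was 9.89 ± 0.29 (FDR 7.59e-25), and it was -8.17 ± 0.24 in SJL against B6 (FDR 1.16e-24) and -7.98 ± 0.24 in SWR against B6 (FDR 1.13e-24). At these read numbers SJL and SWR were not called against 129, but both were once the 129 mouse with the only read (female replicate 4) was left out, the log2 fold changes going from 1.72 to 2.72 and from 1.91 to 2.91. That of B6 against 129 went from 9.89 to 10.9 without the same mouse. Whether reads of a diverged copy in 129, SJL or SWR went to another gene was not tested.

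Trim12c (ENSMUSG00000057143, chr7:104338754-104353362, minus strand), the third close copy, divided the strains into pairs. It had 320 to 415 normalized counts in 129 (median 337), 367 to 496 in B6 (median 390.0), 85.3 to 144 in SJL (median 97.8) and 119 to 136 in SWR (median 127). B6 and 129 overlapped each other and lay above every SJL and SWR mouse. The log2 fold change was -1.79 ± 0.09 in SJL against 129 (FDR 1.45e-18) and -1.51 ± 0.08 in SWR against 129 (FDR 8.50e-17). Against B6 it was -1.95 ± 0.09 in SJL (FDR 1.16e-19) and -1.68 ± 0.08 in SWR (FDR 4.71e-18). B6 against 129 did not pass, at 0.16 ± 0.08 (edgeR FDR 0.076).

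The counts of Trim5, Trim12a and Trim12c were also summed, without scaling by length. The sum of normalized counts averaged 682 ± 74.7 in B6, 361 ± 40.2 in 129, 235 ± 15.7 in SWR and 187 ± 36.5 in SJL (SD, n = 8 each). Of the counts on Trim5 and Trim12c, Trim5 held 0.413% on average in 129 and 10.9% in B6, while SJL had 44.2% and SWR 45.7%. Of those on Trim12a and Trim12c, Trim12a held 36.4% in B6 and at most 1.46% in any other mouse. Thus 129 had reads on Trim12c alone among these copies, apart from 12 reads of Trim5 and 1 of Trim12a, SJL and SWR had comparable counts on Trim12c and Trim5, and B6 had reads on all 3.

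**Figure D3:**
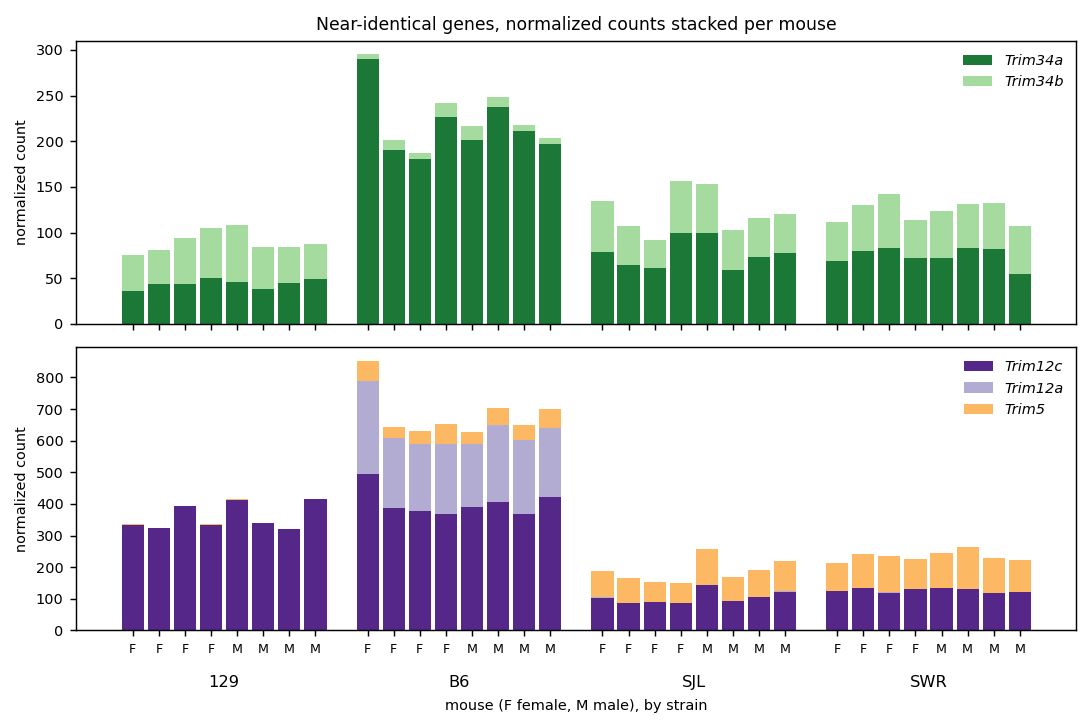
Normalized counts (vertical axes) stacked per mouse (horizontal axis, by strain; F female, M male) for Trim34a and Trim34b (upper panel) and for Trim12c, Trim12a and Trim5 (lower panel). Trim34b made up a small part of the upper bars in B6 alone, and the lower bars held Trim12a in B6, Trim5 in B6, SJL and SWR, and almost only Trim12c in 129.

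Trim34a (ENSMUSG00000056144, chr7:104244457-104262234, plus strand) encodes an interferon-induced relative of TRIM5. Its 8 mice had 36.0 to 50.2 normalized counts in 129 (median 44.5), 181 to 290 in B6 (median 206), 59.4 to 99.6 in SJL (median 75.1) and 54.1 to 83.2 in SWR (median 76.2). Neither B6 nor 129 overlapped any other strain, while SJL and SWR overlapped each other. B6 was higher than 129 by a log2 fold change of 2.29 ± 0.12 (FDR 9.80e-18), and SJL and SWR were lower than B6, at -1.5 ± 0.11 (FDR 1.95e-13) and -1.55 ± 0.11 (FDR 8.68e-14). SJL and SWR exceeded 129 by 0.80 ± 0.12 and 0.74 ± 0.12, under the limit of 1 although the FDR was 2.14e-06 and 6.15e-06.

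Its near copy Trim34b (chr7:104329471-104336909, plus strand), which lies between Trim12a and Trim12c, went the other way in B6. It had 5.33 to 15.8 normalized counts in B6 (median 8.63), against 37.3 to 62.7 in 129 (median 42.7), 31.2 to 56.9 in SJL (median 43.3) and 41.6 to 59.3 in SWR (median 50.5). The log2 fold change of B6 against 129 was -2.32 ± 0.19 (edgeR FDR 2.63e-12). Trim34a held 95.7 ± 1.91% of the counts on both genes in B6, 62.3 ± 3.0% in SJL, 59.8 ± 4.33% in SWR and 49.1 ± 4.77% in 129 (SD, n = 8). Their sum was still highest in B6, at 226 ± 34.5, beside 123 ± 23.3 in SJL, 124 ± 12.1 in SWR and 90.0 ± 11.6 in 129, and B6 did not overlap the rest. Of the 9 genes lying among the members without belonging to them, 2 passed the filter, and both were called. The second is Gm15133 (chr7:104315019-104324838, plus strand), antisense to the start of Trim12a, with 8.53 to 30.5 normalized counts in B6, 0 reads in 129 and SJL and a highest value of 0.884 in SWR. Counting used strand, but how completely the libraries kept it was not tested, and Gm15133 and Trim12a share their strain pattern.

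Trim6 (ENSMUSG00000072244, chr7:104218793-104235152, plus strand) encodes a ubiquitin ligase that promotes interferon signalling through the kinase IKK-epsilon. It was the least separated of the members on the plus strand, with 0 to 7.75 normalized counts in 129 (median 3.43), 4.77 to 32.9 in B6 (median 11.2), 14.2 to 35.5 in SJL (median 22.9) and 19.6 to 38.1 in SWR (median 25.9). All SJL and SWR mice lay above all 129 mice, and B6 overlapped each of the others. Against 129 the log2 fold change was 1.99 ± 0.40 in B6 (FDR 9.63e-05), 2.78 ± 0.37 in SJL (FDR 1.93e-07) and 2.95 ± 0.37 in SWR (FDR 4.79e-08). SWR against B6, at 0.96 ± 0.31, was not called, but it passed 1 on leaving out B6 female replicate 2 (1.04), B6 female replicate 4 (1.19), B6 male replicate 3 (1.13), or SWR male replicate 2 (1.04), 3 (1.0) or 4 (1.01). SJL against B6 went from 0.79 to 1.01, and was called, without B6 female replicate 4. With the background of a library as a term in the fit, the call of B6 against 129 was lost, at 1.12, and SJL and SWR were called higher than B6, at 1.12 and 1.30. SJL was also called higher than B6 in males alone, at 1.16. That background, the reads on gene families of other tissues, had a median of 12.7 RPM in B6, 8.71 in SJL, 7.80 in SWR and 2.38 in 129. In B6 it was highest in female replicates 2 (48.0) and 4 (49.7). Female replicate 4 had the fewest reads on genes of all libraries (5106398) and the highest B6 values of Trim5, Trim6, Trim30c and Trim30d. For the other members the highest B6 value was in another mouse.

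All 4 Trim30 genes had their highest mean in B6, and Trim30a and Trim30d were called higher in each of the other strains than in 129. Trim30a (ENSMUSG00000030921, chr7:104409025-104465193, minus strand) encodes a factor that dampens NF-kappaB signalling downstream of Toll-like receptors by degrading TAB2 and TAB3. It had 16.4 to 74.9 normalized counts in 129 (median 36.1), 120 to 190 in B6 (median 151), 74.4 to 115 in SJL (median 104) and 78.9 to 129 in SWR (median 91.0). B6 lay above all 129 and SJL mice, all SWR mice lay above all 129 mice, and SJL and SWR overlapped. The log2 fold change against 129 was 1.89 ± 0.17 in B6 (FDR 1.81e-11), 1.28 ± 0.17 in SJL (FDR 1.41e-07) and 1.23 ± 0.17 in SWR (FDR 2.88e-07). The last fell to 0.96, under the limit, with the background as a term, and to 0.97 in males alone, and both calls of SJL and SWR were lost with glmTreat. SJL and SWR were lower than B6 by less than the limit, at -0.61 ± 0.15 and -0.66 ± 0.15 (edgeR FDR 0.0014 and 0.00076).

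Trim30d (ENSMUSG00000057596, chr7:104470014-104507849, minus strand), the close copy of Trim30a, had 0 to 9.83 normalized counts in 129 (median 4.27), 35.4 to 76.8 in B6 (median 59.2), 18.5 to 39.1 in SJL (median 22.1) and 19.3 to 41.9 in SWR (median 25.4). Every 129 mouse lay below every other mouse, while the remaining strains overlapped. Against 129 the log2 fold change was 3.64 ± 0.30 in B6 (FDR 4.51e-12), 2.54 ± 0.32 in SJL (FDR 4.88e-08) and 2.66 ± 0.31 in SWR (FDR 1.57e-08). SJL was lower than B6 by -1.10 ± 0.24 (FDR 0.00027), a call that was lost with the background as a term (-0.91). SWR against B6, at -0.98 ± 0.24, was not called, and it passed the limit without B6 female replicate 3 (-1.03), B6 male replicate 1 (-1.06), SWR female replicate 2 (-1.06) or 3 (-1.06), or SWR male replicate 3 (-1.03).

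Trim30b (ENSMUSG00000052749, chr7:104355382-104369884, minus strand) had few reads and overlapped between all pairs of strains. It had 2.19 to 15.9 normalized counts in 129 (median 5.09), 15.3 to 36.2 in B6 (median 17.5), 5.68 to 24.7 in SJL (median 13.2) and 3.08 to 19 in SWR (median 9.97). The highest B6 value was that of female replicate 1. B6 was higher than 129 by 1.53 ± 0.33 (edgeR FDR 0.00025), a call that was lost with the background as a term (0.76) and in males alone (0.75). SJL against 129 lay at the limit, at 1.0 ± 0.34 (FDR 0.018). It fell under 1, to between 0.84 and 0.98, on leaving out any of 9 libraries, namely 129 female replicates 1 to 4, 129 male replicates 2 and 3, SJL female replicate 1 and SJL male replicates 1 and 4. It fell further with the background as a term (0.47) and in males alone (0.76), where it was not called either. SWR against B6, at -1.04 ± 0.32 (FDR 0.0085), was lost without B6 female replicate 1 (-0.83), SWR female replicate 4 (-0.88) or SWR male replicate 4 (-0.97), with the background as a term (-0.77) and in males alone (-0.70).

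Trim30c (ENSMUSG00000078616, chr7:104382065-104400837, minus strand) was near the limit of detection and was not tested. Its values were 0 to 4.43 normalized counts in 129 (median 1.01), 0.853 to 15.4 in B6 (median 5.08), 0 to 5.22 in SJL (median 1.68) and 0 to 5.07 in SWR (median 0.865), and all strains overlapped. Over the 8 mice of a strain it had 11, 38, 19 and 13 reads in the same order. With no filter on low counts, edgeR called it higher in B6 than in 129 (log2 fold change 1.85, FDR 0.017) and lower in SWR than in B6 (-1.72, FDR 0.040), and DESeq2 called the same pairs. Calls were common in these settings, which took in the 44957 genes with a read. In B6 against 129, edgeR without the filter called 10027 genes and DESeq2 5282, in either direction. In SWR against B6 they called 2845 and 2194.

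On the scale per length, the order of the genes changed with the strain. The order also rests on the length used, which took in all annotated exons, 5781 bases for Trim12a and 7527 for Trim30b. Their transcripts with the longest coding sequence have only 1486 and 3042 bases, while Trim12c has 3740 either way. Orders on transcript lengths were not computed, so the places of Trim12a and Trim30b hold for this length alone. In B6, Trim12c led with 9.65 ± 0.781 RPKM, and its range overlapped that of Trim34a at 7.50 ± 1.08. Trim12a (3.58 ± 0.402) and Trim30a (3.29 ± 0.494) followed, overlapping each other but not Trim34a, and Trim30d (1.36 ± 0.324) and Trim5 (1.2 ± 0.277) came next, followed by Trim30c, Trim6 and Trim30b, each under 0.310 RPKM on average. In 129, Trim12c stood at 8.22 ± 0.980 RPKM, above Trim34a at 1.45 ± 0.150 and Trim30a at 0.837 ± 0.35, which overlapped, and the other 6 members averaged 0.103 RPKM or less. In SJL, Trim34a (2.63 ± 0.548), Trim12c (2.47 ± 0.461), Trim30a (2.15 ± 0.368) and Trim5 (1.99 ± 0.388) each overlapped its neighbour in the order. In SWR, the same genes led from Trim12c at 2.95 ± 0.171 to Trim30a at 2.05 ± 0.402, with each overlapping the next (SD, n = 8 throughout).

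The sexes were compared over all strains, and no member was called. The limits for sex were an absolute log2 fold change above 1 and an FDR under 0.01, with strain in the fit. edgeR and DESeq2 each called 0 members (all genes in edgeR: 0.0381%), and 0 members had an unadjusted p under 0.05 in either tool. The log2 fold changes of males against females ran from -0.06 for Trim12a to 0.18 for Trim30b. For the interaction of strain and sex, again each tool called 0 members (all genes in edgeR: 0.0163%), and 1 member, Trim30d, had an unadjusted p under 0.05. In 129, the 4 males had 5.54 to 9.83 normalized counts of Trim30d and the 4 females 0 to 2.998. In B6, males had 35.4 to 69.0 and females 42.6 to 76.8, in SJL 18.7 to 33.2 and 18.5 to 39.1, and in SWR 22.0 to 35.1 and 19.3 to 41.9. The interaction of Trim30d did not pass the correction over all genes (edgeR FDR 0.38). Males and females also did not overlap for Trim30a in SWR (78.9 to 90.2 and 91.7 to 129) and for Trim6 in SJL (23.1 to 35.5 and 14.2 to 22.7). How often the sexes of a strain, with 4 mice each, do not overlap over all genes was not counted.

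Likeness between members was described over all mice and within strains. Over the 32 libraries, the 28 pairs of the 8 tested members had Pearson r of log2 CPM (counts scaled as RPM with the TMM factors) from -0.64 to 0.92 (median 0.60). Trim12a and Trim34a had the highest value, and Trim6 and Trim12c the lowest. After the mean of each strain was subtracted, r ran from -0.08 to 0.58 (median 0.24), with Trim12c and Trim30b the highest. In Trim12c, r rose after the subtraction with each other member except Trim12a, as from -0.63 to 0.27 with Trim5. Strain accounted for 48.7% of the variance of Trim30b, 75.8% of Trim6, 82.2% of Trim30a, 85.4% of Trim30d and 94.2% or more of Trim34a, Trim12c, Trim5 and Trim12a. Libraries of a strain share their genome and all libraries share the scaling, so these values are descriptions.

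The genes most like each member were mostly outside chromosome 7. For Trim5 they were the vomeronasal receptor Vmn2r110 on chromosome 17 (r = 0.987) and Gm15987 on chromosome 6 (r = 0.984). For Trim12a they were the receptor Vmn1r188 (r = 0.993) and 6820402A03Rik (r = 0.993), both listed at 0 in every mouse of the other 3 strains. For Trim12c they were Vmn2r8 (r = 0.986) and the ribosomal protein gene Rpl26 (r = 0.983), which averaged 3081 normalized counts in 129 and 3586 in B6, against 277 in SJL and 385 in SWR. With strain means subtracted, r for these 6 genes was at most 0.47.

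For Trim34a the most similar genes were Coch (r = 0.964), which encodes cochlin, and Samd9l (r = 0.956), an antiviral gene induced by interferon. For Trim6 they were Tgtp1 (r = 0.907), an interferon-induced GTPase, and Gm29154 (r = 0.884). Trim30a was most like Ctss (r = 0.934), the protease cathepsin S of antigen-presenting cells, and Ifit2 (r = 0.932), an interferon-induced antiviral gene. The r of Ifit2 was still 0.806 after strain means were subtracted. Trim30d went with Slfn8 (r = 0.931) and Arhgap24 (r = 0.918), and Trim30b with Selplg (r = 0.864), the P-selectin ligand of leukocytes, and Rnase4 (r = 0.854). With Spearman's rho in place of r, 4 of these 16 pairings of a member and a gene were found again.

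Interferon-stimulated genes outside the family were then set beside the members. Of 20 such genes, all tested, 14 were called higher in B6 than in 129 and 0 lower, with a median log2 fold change of 1.55. Over all genes, 8.72% were called higher and 2.40% lower. The count was 16 without B6 female replicate 1 and 129 male replicate 1, where the calls over all genes, in either direction, also rose, from 2044 to 2532. Usp18, which removes the ubiquitin-like ISG15 from proteins, averaged 49.9 ± 24.1 normalized counts in 129 and 285 ± 53.8 in B6 (log2 fold change 2.501 ± 0.24, FDR 9.98e-11). Oasl2, a relative of the viral RNA sensors OAS, averaged 234 ± 66.4 and 1201 ± 119 (2.35 ± 0.15, FDR 2.51e-15). Ifit3, an antiviral RNA-binding protein, had 338 ± 58.0 in B6 and 67.7 ± 8.12 in SWR (-2.34 ± 0.20 in SWR against B6, FDR 6.68e-12). Against 129, 4 of the 20 were called higher in SJL (median 0.81) and 4 in SWR (median 0.63), beside 5.61% and 4.62% of all genes. Against B6, 8 were called lower in SJL and 9 in SWR, and 1 was called lower in SWR than in SJL (all genes: 5.33%, 5.53% and 2.31%).

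Genes of interferon signalling itself were counted next. Of 11 receptors, kinases and transcription factors, 2 were called in a pair of strains, close to the 19.8% of all genes. Among them Irf7, a transcription factor that amplifies the interferon response, was higher in B6 than in 129 by 1.35 ± 0.25 (edgeR FDR 3.25e-05). Of the other retroviral restriction factors, 12 of 15 were tested and 2 were called, again near the 19.8% of all genes called in a pair. Apobec3, a cytidine deaminase that mutates retroviral DNA, averaged 352 ± 32.4 in B6 and 117 ± 9.63 in SWR (-1.60 ± 0.08, FDR 3.84e-18), and Ifi203 was lower in SWR than in B6 by -1.75 ± 0.24 (FDR 2.04e-07). Fv1, the capsid-binding factor of classical mouse genetics, was not called in any pair, its largest difference being -0.23 ± 0.09 in SJL against 129 (FDR 0.048).

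Of 16 signalling partners of the TRIM5 and TRIM30 proteins, among them Map3k7, Tab2 and Tab3, 15 were tested and edgeR and DESeq2 called 0. At an unadjusted p under 0.05, edgeR found 12 in some pair and DESeq2 13, and the largest absolute log2 fold change in edgeR was 0.89, of Nlrp3. Of 60 other Trim genes, 41 were tested and 7 were called in at least 1 pair, beside 19.8% of all genes. Besides Trim34b these were Trim68 (-1.43 ± 0.11 in SWR against 129), Trim71 (1.37 ± 0.38 in B6 against 129), Trim9 (-1.195 ± 0.14 in B6 against 129), Trim67 (-1.17 ± 0.19 in SWR against 129), Trim29 (-1.09 ± 0.30 in SJL against B6) and Trim47 (-1.07 ± 0.12 in SWR against SJL). In B6 against 129, 1 of the 41 was called higher and 2 lower (all genes: 8.72% and 2.40%), with a median log2 fold change of -0.15.

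**Figure D4:**
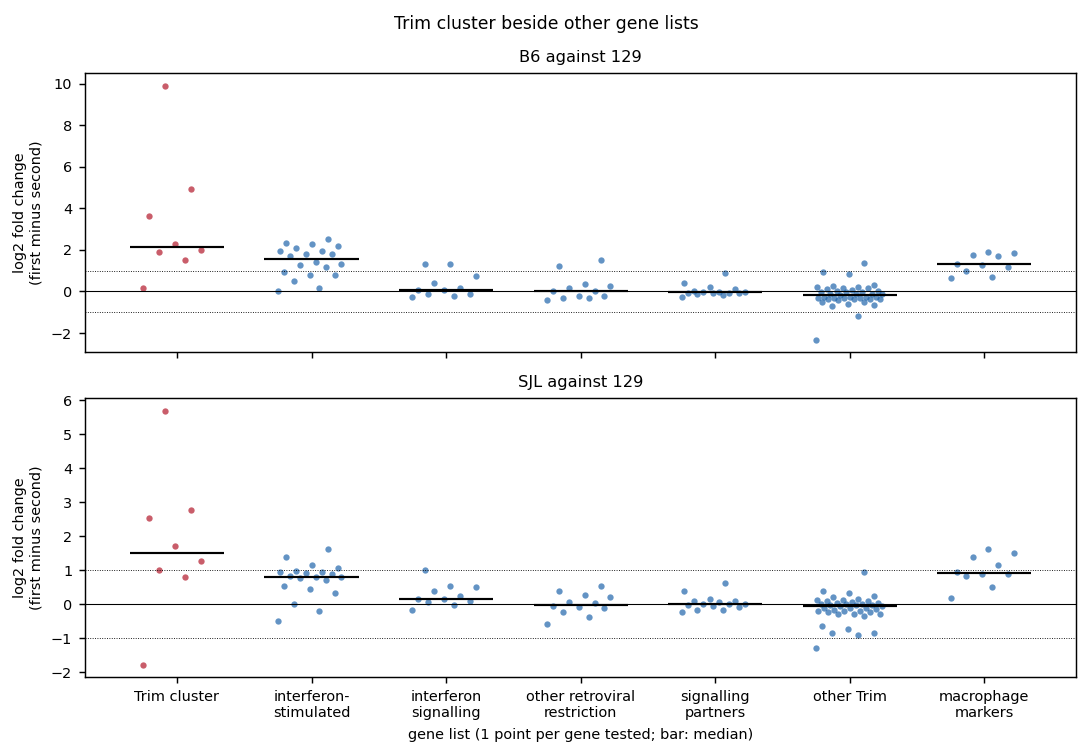
Log2 fold change (vertical axes) of each tested gene in 7 gene lists (horizontal axis) for B6 against 129 (upper panel) and SJL against 129 (lower panel), with a bar at the median of each list and dotted lines at 1 and -1. The median was 2.14 for the Trim cluster, 1.55 for interferon-stimulated genes and 1.30 for macrophage markers in the upper panel, and between -0.15 and 0.07 for the other lists.

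The summed level of macrophage markers, like that of the Trim30 genes, had its lowest median in 129 and its highest in B6, though Cx3cr1 had its highest mean in SJL and Aif1 in SWR. All 10 macrophage markers had reads, and 7 were called higher in B6 than in 129, 4 higher in SJL than in 129 and 2 higher in SWR than in 129. The shares of all genes were 8.72%, 5.61% and 4.62%. Their summed level was 50.6 to 75.4 RPM in 129 (median 54.7), 125.01 to 172 in B6 (median 151), 106 to 141 in SJL (median 117) and 72.5 to 112 in SWR (median 82.6). Over the 32 libraries the log2 sum of the Trim30 genes followed that of the markers with r = 0.91, and within a strain r was 0.80 in 129, 0.68 in SJL, 0.60 in B6 and 0.30 in SWR (n = 8 each). For Trim34a it was 0.85 over all libraries and 0.50, 0.41, 0.36 and -0.10 within the strains in the same order. The log2 sum of the 20 interferon-stimulated genes had r = 0.93 with Trim34a over all libraries, and 0.88 in B6, 0.59 in SJL, 0.44 in SWR and 0.28 in 129. With the Trim30 sum it had r = 0.88 over all libraries, and 0.79 in 129, 0.67 in SJL, 0.24 in SWR and 0.08 in B6. With strain means subtracted, r with the markers was 0.44 to 0.50 for Trim30a, Trim30b and Trim30d and -0.13 for Trim12a. For the same Trim30 genes it was 0.41 to 0.47 with B lymphocyte markers and 0.40 to 0.57 with endothelial markers. For Trim34a it was 0.19 with macrophage markers, 0.37 with B lymphocyte, 0.33 with endothelial and 0.31 with neutrophil markers. With markers of vomeronasal sensory neurons, r for Trim34a was -0.63. The part of macrophages in the levels of the members was not tested.

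**Figure D5:**
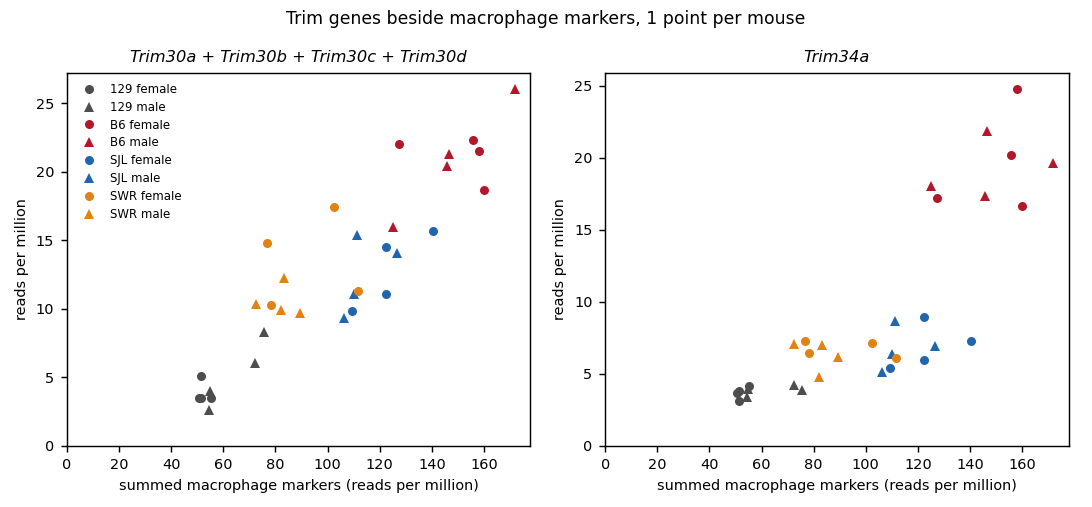
RPM of the summed Trim30 genes (left) and of Trim34a (right) on the vertical axes against the summed level of 10 macrophage markers in RPM (horizontal axes), 1 point per mouse (circles: females, triangles: males; colours: strains). The 129 mice sat between 50.6 and 75.4 on the marker axis and the B6 mice between 125.01 and 172, with the highest Trim levels in B6.

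Markers of other cell types were summed and counted in the same way. Their counts of calls in B6 against 129 stand beside 8.72% of all genes called higher in B6. Of the markers of T lymphocytes 3 of 8 passed the filter and 1 was called higher in B6 than in 129. Their sum was lower in B6 (22.7 to 30.8 RPM) than in 129 (30.1 to 42.4), with ranges that overlapped. It was made up mostly of Cd247, which is not restricted to T cells and averaged 398 normalized counts in 129 and 235 in B6. Of the other markers, all but Lck had a higher mean in B6 than in 129, at most 24.2 normalized counts in B6. Of 6 B lymphocyte markers 3 were tested and 2 called higher in B6 than in 129, with sums from 2.29 to 9.40 RPM over all libraries. The median sum was lowest in 129 (2.76), beside 6.36 in B6, 6.46 in SJL and 5.41 in SWR. Over the 32 libraries, r of this sum with a member ran from -0.34 for Trim12c to 0.80 for Trim30a and Trim30d. With macrophage markers r ran from -0.08 for Trim12c to 0.88 for Trim30a. Of 7 neutrophil markers 3 were tested and 1 called higher in B6 than in 129, and their sum, from 198 to 4641 RPM, was made up mostly of Ltf, which glands express too. Of 7 endothelial markers edgeR and DESeq2 called 0 in any pair (all genes in edgeR: 19.8%). At an unadjusted p under 0.05, each tool found 6 in some pair. The sum of the 7 ran from 14.6 to 62.7 RPM. Of 5 red blood cell markers 1 was called higher in B6 than in 129, and their sum ran from 10.7 to 49.6. With strain means subtracted, r between a member and a summed list reached 0.57 for Trim30a and endothelial markers, 0.60 for Trim30b and neutrophil markers and -0.69 for Trim30a and the markers of vomeronasal sensory neurons. The part of these cells in the levels of the members was not tested.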

How the data were processed

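The deposited count of a gene is, per the authors, the number of read pairs of a stranded, ribodepleted total RNA library that STAR placed uniquely on its reverse strand, on GRCm38 (mm10) with the genes of Ensembl 87. The deposited normalized signal is that count after the authors scaled each library with DESeq2 size factors, and the ratio of the tables was checked to be constant within each library. Sample labels gave strain and sex, and the number from 1 to 4 in the library descriptions, whose meaning the labels do not give, was the replicate number.

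Counts were tested with edgeR 4.0.16 in R 4.3.3 (limma 3.58.1; TMM, filterByExpr on 8 strain and sex groups, quasi-likelihood F test), and p-values were adjusted over the 18382 genes tested (FDR, Benjamini and Hochberg). Strain pairs had sex as a covariate. Alternatives, DESeq2 1.42.0 among them, were run on the whole table. Each SE is approximate, the absolute log2 fold change over the square root of F. Likeness used log2 CPM with a prior count of 2. Intervals of ratios from few reads cover counting error only. Each library came from its own mouse.

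Gene positions and coding sequences came from GENCODE M21, promoters from RefSeq. The steps were tested on simulated data. The members, gene lists and named genes were chosen with earlier results of these data known. Named were the members, the 2 genes most like each, called genes lying among the members, other Trim genes called in a pair (at most 10), and the called genes of each pathway list (at most 3). Fv1, Cd247, Lck, Ltf, Cx3cr1, Aif1, Nlrp3, Map3k7, Tab2 and Tab3 were named outside this rule, after values were seen. 1 called gene of the interferon signalling list is not reported here. Protein sequences were not used here.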

Additional observations from a re-analysis of the deposited data

Results flagged for a closer look

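In the 8 groups of strain and sex, with 4 mice each, the member values formed 71 sets with any spread. In 7 of these, a mouse had a gap to the nearest other above Dixon's 95% critical value, as a share of the range. Chance gives about 1 in 20 for normally distributed values, which sets of a few reads are not. With 1 read in 1 mouse, as for Trim12a in 129 females, the gap always equals the range. No excess over chance is read from the count of 7. B6 female replicate 1 was high for Trim12a (294 normalized counts, the others 212 to 222) and Trim12c (496, the others 369 to 389). In 129 females, replicate 3 was high for Trim12c (393, the others 324 to 335), and replicate 4 for Trim5 (3.29, the others 0.749 to 1.16) and for Trim12a (0.824, the others 0). In males, replicate 4 of 129 was high for Trim6 (7.75, the others 3.28 to 3.74), and replicate 4 of B6 for Trim30c (8.58, the others 4.66 to 5.08).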

How the results depend on the processing

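Over all settings tried, each member called between strains kept its direction in that pair. Testing against the fold limit with glmTreat left 3 members in SWR against B6, and 15 of the 26 called genes of the pathway and other Trim lists, and Spearman's rho kept 4 of 16 most similar genes; in these the cause was not tested. With the background as a term, the count for B6 against 129 fell from 7 to 5 and that in at least 1 pair from 8 to 7. In males alone and with glmTreat these counts were 6 and 7. DESeq2 and edgeR without the filter, which took in Trim30c, gave 8 and 9. With glmTreat, Trim30b lost each of its calls, and Trim30d its call in SJL against B6. The block on the replicate number left the count for B6 against 129 at 7 and the 8 members called in at least 1 pair. With this block the count went from 6 to 5 in SJL against 129 and from 5 to 4 in SWR against B6, with Trim30b lost at 0.97 and -0.997. The numbers do not pair mice: same-numbered libraries of different groups had a median r of -0.01 in their deviations from the group means, and those of different numbers 0.01.

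Uncalled differences changed sign as follows. With the background as a term, Trim30b in SWR against 129 went to -0.011, and Trim30a and Trim30d in males against females to 0.0037 and 0.0719. In males alone, Trim30b in SJL against B6 went to 0.0092 and Trim6 in SWR against SJL to -0.247, and in females alone Trim30a in SWR against SJL to 0.11. Without both libraries that stand apart, Trim34a and Trim12a in males against females went to 0.0209 and 0.0531. Leaving out 1 library moved SWR against SJL from -0.10 to 0.0231 for Trim34a and from -0.0573 to 0.44 for Trim12a. It moved males against females from -0.11 to 0.0049 for Trim30a, -0.0606 to 0.0199 for Trim34a, -0.085 to 0.0278 for Trim30d and -0.10 to 0.0487 for Trim12a. Low counts limit Trim6, Trim30b and Trim30c in all strains, Trim12a outside B6, and Trim5 and Trim30d in 129.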
